A study of Homo sapiens with 17 samples.

Results

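MIR and L2 elements are among the oldest repeat families of the human genome, and they are described here as all repeat loci that the count tables assign to the class and family SINE/MIR or LINE/L2. The rule used the repeat annotation alone and no measured value. It took 1174615 of the 4748242 repeat loci in the tables, of which 622213 were MIR and 552402 were L2. Counts were found at 208707 of these loci, and they summed to 2057649 over all libraries.

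L2 elements are long interspersed elements that copied themselves through an RNA intermediate, and MIR elements are short, tRNA-derived elements that are thought to have borrowed the L2 machinery because their 3′ ends resemble that of L2. Both families stopped moving long before primates arose, so their copies are short, diverged from each other and spread through introns and the space between genes. Reads from them therefore come mostly from RNA of the genes or other transcripts in which the copies lie, and some copies have been taken up as parts of exons or of regulatory elements.

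The libraries were made from IMR90 ER:RAS cells, lung fibroblasts of human origin with a retroviral construct for an activated RAS joined to an oestrogen receptor domain. The hormone analogue 4-hydroxytamoxifen (4OHT) switches the fusion on and drives the cells into oncogene-induced senescence, and DMSO was its solvent control. Either a non-targeting siRNA (siNT) or one for SMARCA4, an ATPase subunit of the SWI/SNF chromatin remodelling complex, was transfected before 4OHT or DMSO was added, and poly(A)-selected RNA was sequenced by strand. The 3 groups were DMSO siNT with 5 libraries and 4OHT siNT and 4OHT siSMARCA4 with 6 each. All 3 groups carry the ER:RAS construct and received an siRNA, and no DMSO siSMARCA4 group was analysed here. Each library's label holds an siRNA number (2 or 4), a replicate digit and the tag V or VM. The labels do not explain the number or the tag, and all 6 libraries of 4OHT siNT are tagged VM. The labels do not say that libraries came from separate cultures, so p-values measure the spread between these libraries, which may be technical. Senescence was read from 4OHT siNT minus DMSO siNT, and the knockdown from 4OHT siSMARCA4 minus 4OHT siNT. The comparisons share the 6 libraries of 4OHT siNT.

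Libraries held 39.1 to 69.0 M counts (M, 1e6), of which 1.35 to 1.93% lay on repeats. SMARCA4 itself stood at 207 ± 17.1 CPM (counts scaled to 1e6 per library; SD, n = 5) in DMSO siNT, 260 ± 10.4 (n = 6) in 4OHT siNT and 87.4 ± 22.02 (n = 6) in 4OHT siSMARCA4, and it fell by 1.60 on the log2 scale with the knockdown (SE 0.13, adjusted p = 2.67e-07). Adjusted p-values throughout are from edgeR's quasi-likelihood test with Benjamini-Hochberg adjustment. It was taken over the repeat rows of the table in question for repeats, and over the tested genes for genes. All 10 fibroblast markers exceeded 1 CPM in each group, with a summed level of 24265 to 29103 CPM in DMSO siNT, 13157 to 16650 in 4OHT siNT and 7528 to 10753 in 4OHT siSMARCA4. The markers did not all fall. VIM differed by -0.10 with senescence (adjusted p = 0.439) and by -0.05 with the knockdown (0.745). FAP rose by 0.43 with senescence (adjusted p = 0.00406) and differed by -0.12 with the knockdown (0.454). The other markers were called lower in both comparisons. Of 7 markers of epithelial, blood, endothelial and liver cells, 6 stayed under 1 CPM in every group mean. The 7 summed to 32.8 to 50.02 CPM in DMSO siNT, 1.97 to 3.63 in 4OHT siNT and 0.861 to 1.88 in 4OHT siSMARCA4. KRT19, an epithelial keratin, averaged 39.7, 1.22 and 0.586 CPM in the 3 groups and fell by 5.03 on the log2 scale with senescence (adjusted p = 2.01e-12). PECAM1, an endothelial adhesion protein, averaged 0.0154, 0.907 and 0.339 CPM, rose by 5.71 with senescence (adjusted p = 4.01e-08) and fell by 1.43 with the knockdown (adjusted p = 0.00607). The part of these cell types in the results was not tested. In bulk RNA, fewer cells of a kind and less RNA per cell cannot be told apart. Summed repeats that are sparse and lie far from any gene ranged from 41.0 to 103 CPM in DMSO siNT, 30.8 to 59.0 in 4OHT siNT and 60.5 to 170 in 4OHT siSMARCA4, so this level moved with the knockdown. Its part in the results below was not tested beyond a fit with it as a covariate.

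The sequences of 11 copies on which the results turn are given first, because the copies differ so much that a family name alone tells little of their sequence. They were read from GRCh38 on the plus strand, 5′ to 3′. The files do not give the orientation of an insertion. To show what is left of the family consensus, the 4 words of 8 bases most typical of each family were found by comparing 20000 copies with windows of the same length 2000 bases away. For MIR these were AAACTGAG, ATTTTACA, ATCTGTAA and TGAGGAAA. For L2 they were TGAATGAA, ATTTATTG, AATATTTG and TCAACAAA. Words were sought on both strands, and capitals mark where a word of the copy's own family was found. Of the sampled MIR copies, 26.7% held at least 1 MIR word, as did 5.6% of the neighbouring windows and 4.26% of the L2 copies. Of the sampled L2 copies, 19.9% held at least 1 L2 word, as did 5.58% of windows and 6.83% of MIR copies. The first 4 copies lie in introns of F3 and fell together with the knockdown.
L2d2 in F3, chr1:94530934-94531050: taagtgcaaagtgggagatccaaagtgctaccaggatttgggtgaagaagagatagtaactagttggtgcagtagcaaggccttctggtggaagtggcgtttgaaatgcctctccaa
MIR3 in F3, chr1:94532807-94532983: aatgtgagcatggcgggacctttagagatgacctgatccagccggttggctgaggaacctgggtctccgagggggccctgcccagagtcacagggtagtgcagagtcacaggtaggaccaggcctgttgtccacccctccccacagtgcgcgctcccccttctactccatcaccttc
MIR in F3, chr1:94536434-94536618: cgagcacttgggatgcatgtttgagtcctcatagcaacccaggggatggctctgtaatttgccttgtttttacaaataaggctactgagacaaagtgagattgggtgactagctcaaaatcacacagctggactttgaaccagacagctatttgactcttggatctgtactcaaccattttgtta
MIRb in F3, chr1:94536842-94537032: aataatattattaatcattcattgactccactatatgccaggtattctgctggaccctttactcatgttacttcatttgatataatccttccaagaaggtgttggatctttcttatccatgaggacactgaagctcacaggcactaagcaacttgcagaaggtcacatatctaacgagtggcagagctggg
None of these 4 held a word of its family. The next pair lies in introns of RNF141 and rose with senescence, where the gene fell.
L2c in RNF141, chr11:10521110-10521355: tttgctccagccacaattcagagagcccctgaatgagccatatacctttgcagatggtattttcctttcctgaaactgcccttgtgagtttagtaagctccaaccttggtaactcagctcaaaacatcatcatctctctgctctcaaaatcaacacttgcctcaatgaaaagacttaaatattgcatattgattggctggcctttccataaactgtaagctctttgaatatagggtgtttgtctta
MIR in RNF141, chr11:10522745-10522965: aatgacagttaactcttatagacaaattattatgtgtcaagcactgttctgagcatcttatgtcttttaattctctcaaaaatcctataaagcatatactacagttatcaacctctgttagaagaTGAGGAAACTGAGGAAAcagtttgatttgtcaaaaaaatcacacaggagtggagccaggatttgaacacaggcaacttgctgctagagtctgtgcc
The MIR copy in RNF141 held 3 MIR word matches, and the L2c copy held no L2 word. The next 3 copies rose with the knockdown and lie in genes that were not called, as did other copies given below.
MIRb in SNX9, chr6:157796996-157797163: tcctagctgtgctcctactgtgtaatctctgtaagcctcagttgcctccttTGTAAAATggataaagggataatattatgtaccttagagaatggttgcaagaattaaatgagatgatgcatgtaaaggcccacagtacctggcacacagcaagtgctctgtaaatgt
MIRc in MTX1P1, chr1:155231959-155232093: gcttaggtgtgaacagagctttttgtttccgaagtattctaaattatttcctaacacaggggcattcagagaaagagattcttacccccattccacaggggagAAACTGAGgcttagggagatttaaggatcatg
L2b in MTX1P1, chr1:155231275-155231480: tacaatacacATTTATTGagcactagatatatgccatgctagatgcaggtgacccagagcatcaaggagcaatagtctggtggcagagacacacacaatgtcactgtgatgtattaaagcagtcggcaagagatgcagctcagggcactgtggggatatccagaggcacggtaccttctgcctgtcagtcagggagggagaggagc
Each of the 3 held 1 word match. The last pair holds the copy outside genes that was without counts in DMSO siNT and the intronic L2b copy of ARHGAP22, which is among the most read.
MIRb near LINC01392, chr7:115301649-115301797: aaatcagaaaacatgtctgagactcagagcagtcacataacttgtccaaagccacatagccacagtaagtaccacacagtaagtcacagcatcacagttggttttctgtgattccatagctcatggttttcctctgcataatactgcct
L2b in ARHGAP22, chr10:48574242-48574462: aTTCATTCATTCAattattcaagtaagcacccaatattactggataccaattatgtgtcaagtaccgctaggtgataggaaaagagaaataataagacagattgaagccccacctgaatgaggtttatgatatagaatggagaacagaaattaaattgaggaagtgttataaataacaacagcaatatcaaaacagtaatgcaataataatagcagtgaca
The L2b copy held 2 L2 word matches, and the MIRb copy held none. A match is a description of the letters, not evidence of a site.

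Most MIR and L2 loci were silent in these libraries, and the counts lay where the genes lie. Counts were seen at 104572 MIR loci (16.8%) and at 104135 L2 loci (18.9%), while 15780 MIR and 13592 L2 loci reached 10 counts over all libraries. The 2016 most read MIR loci held 0.5 of the 1098214 MIR counts, and the 1949 most read L2 loci held 0.5 of the 959435 L2 counts. Loci that touch an annotated exon were 4.37% of MIR loci and held 22.99% of MIR counts. Intronic loci were 61.8% of MIR loci and held 67.2% of the counts, and loci outside genes were 33.8% and held 9.78%. For L2 the exonic loci were 3.92% of loci and held 26.0% of counts, the intronic ones 60.9% and 62.3%, and those outside genes 35.2% and 11.6%. Per kilobase of annotated element, MIR held 60.9 counts in exons, 12.8 in introns and 3.41 outside genes, summed over the 17 libraries. L2 held 39.8, 6.88 and 2.23 counts per kilobase in the same order, fewer than MIR in each place. The share of loci with any count went the other way. It was 25.7%, 20.2% and 9.47% for MIR and 30.7%, 22.3% and 11.5% for L2. MIR copies are shorter, with a median of 151 bases beside 178 for L2. The part of copy length in these differences was not tested. For comparison, Alu held 45.0, 16.5 and 6.08 counts per kilobase.

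The most read loci of both families touched exons, though each held a small share of the counts. The locus with the most counts was a MIR copy that shares 102 bases with exons of RPS19, a ribosomal protein gene, at chr19:41861505-41861703, with 22332 counts or 2.03% of all MIR counts. It stood at 22.4, 25.3, 22.5, 27.0 and 46.3 CPM in the DMSO siNT libraries, at 19.0, 23.05 and 25.6 (lowest, median and highest) in 4OHT siNT and at 10.8, 26.2 and 31.2 in 4OHT siSMARCA4. The groups overlapped, and neither comparison passed the test (adjusted p = 0.311 for senescence and 0.941 for the knockdown). The next MIR loci were MIR1_Amn copies in exons, 1 where SEC61A1, a subunit of the translocon, overlaps RUVBL1 (6729 counts) and 1 in TGM2, a transglutaminase (5686 counts). The L2 locus with the most counts was an L2b copy of 2157 bases at chr4:78180096-78182252, with 8368 counts, which overlaps FRAS1 and SERBP1P5. SERBP1P5 is a processed pseudogene, so reads of its near-identical parent gene may be shared with this locus and its value is uncertain. It was among the steadiest, at 8.14, 10.5, 9.54, 9.91 and 10.5 CPM in DMSO siNT, 7.55, 8.17 and 10.04 in 4OHT siNT and 9.24, 9.54 and 10.5 in 4OHT siSMARCA4.

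The family totals did not pass the test in either comparison. MIR summed to 1051 ± 158 CPM in DMSO siNT (n = 5), 1268 ± 156 in 4OHT siNT (n = 6) and 1308 ± 174 in 4OHT siSMARCA4 (n = 6). The log2 difference was 0.27 for senescence (SE 0.11, adjusted p = 0.141) and 0.05 for the knockdown (SE 0.11, adjusted p = 0.696, 95% interval -0.17 to 0.26). L2 summed to 929 ± 206, 1087 ± 197 and 1151 ± 200 CPM, with a log2 difference of 0.23 for senescence (SE 0.15, adjusted p = 0.351) and 0.08 for the knockdown (SE 0.15, adjusted p = 0.606, 95% interval -0.20 to 0.37). The groups overlapped in each case. For senescence, number 2 gave 0.06 for MIR and -0.11 for L2 and number 4 gave 0.55 and 0.69, and the difference between the numbers did not pass over the families (adjusted p = 0.109 for MIR and 0.0656 for L2). MIR was called with number 4 alone (0.59, adjusted p = 0.0371), VM libraries alone (0.37, 0.0329), the tag as a covariate (0.37, 0.0222) and without DMSO siNT 2-2V (0.36, 0.0299), and L2 was called with number 4 alone (0.72, 0.0371). Of the 44 families tested, 11.4% passed the test with the knockdown and 6.82% with senescence, and the median log2 difference of all families with the knockdown was 0.26. Alu passed with the knockdown, at 0.40 (SE 0.11, adjusted p = 0.0298), and L1 did not, at 0.24 (SE 0.09, adjusted p = 0.0586). With library sizes scaled on repeats alone, which brought the median of all families to 0.04, the knockdown estimates turned to -0.17 for MIR and -0.13 for L2.

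Split by place in the fit on all libraries, intronic copies carried the higher senescence estimates and copies outside genes the higher knockdown estimates. This order was not tested and was not stable. Senescence estimates with siRNA number 4 were 1.17 and 0.91 for exonic L2 and MIR and 0.60 and 0.51 for intronic. With sparse repeats as a covariate, knockdown estimates were 0.47 and 0.37 for exonic L2 and MIR and 0.081 for L2 outside genes. Intronic MIR stood at 619, 892, 658, 665 and 581 CPM in DMSO siNT, at 792, 870 and 925 (lowest, median and highest) in 4OHT siNT and at 712, 847 and 1069 in 4OHT siSMARCA4. DMSO siNT 2-2V lay within the range of 4OHT siNT, and the other 4 libraries of DMSO siNT lay below it. The log2 difference for senescence was 0.34 (SE 0.11, adjusted p = 0.0831), and without DMSO siNT 2-2V it was 0.46 (adjusted p = 0.00343). Over all 11 libraries left out in turn it ranged from 0.28 to 0.46, with adjusted p-values of up to 0.195. Intronic L2 differed by 0.28 (SE 0.15, adjusted p = 0.259), and by 0.45 (adjusted p = 0.013) without the same library, within a range of 0.20 to 0.45 and adjusted p-values of up to 0.429. Of the 116 combinations of family and place, 9.48% passed the test with senescence and 16.4% with the knockdown, and neither the 3 MIR nor the 3 L2 rows were among those for senescence.

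With the knockdown, L2 outside genes was the only MIR or L2 row by place that passed. Its libraries stood at 99.5, 134, 107, 102 and 117 CPM in DMSO siNT, at 108, 117 and 126 in 4OHT siNT and at 114, 145 and 164 in 4OHT siSMARCA4. The lowest library of 4OHT siSMARCA4, 4-2VM, lay within the range of 4OHT siNT and the other 5 lay above it. The log2 difference was 0.27 (SE 0.09, adjusted p = 0.0465). This call was lost in 22 of 25 alternatives, among them leaving out any library but 4OHT siSMARCA4 4-2VM (adjusted p 0.0128 to 0.123), and with library sizes scaled on repeats alone the estimate was -0.02. With sparse repeats far from genes as a covariate, whose level moved with the knockdown, the estimate was 0.081 (adjusted p = 0.721). MIR outside genes differed by 0.23 (SE 0.09, adjusted p = 0.0724), and by 0.28 (adjusted p = 0.0168) without 4OHT siSMARCA4 4-2VM, with adjusted p-values of up to 0.187 without another library. The intronic rows differed by 0.04 for MIR and 0.11 for L2 and the exonic rows by -0.03 and -0.06, with adjusted p-values of 0.605 to 0.937. The exonic signs were not stable: without any 1 of 4OHT siNT 2-1VM, 4-1VM or 4-2VM, both were at or above 0, at 0.00 to 0.11.

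**Figure D1:**
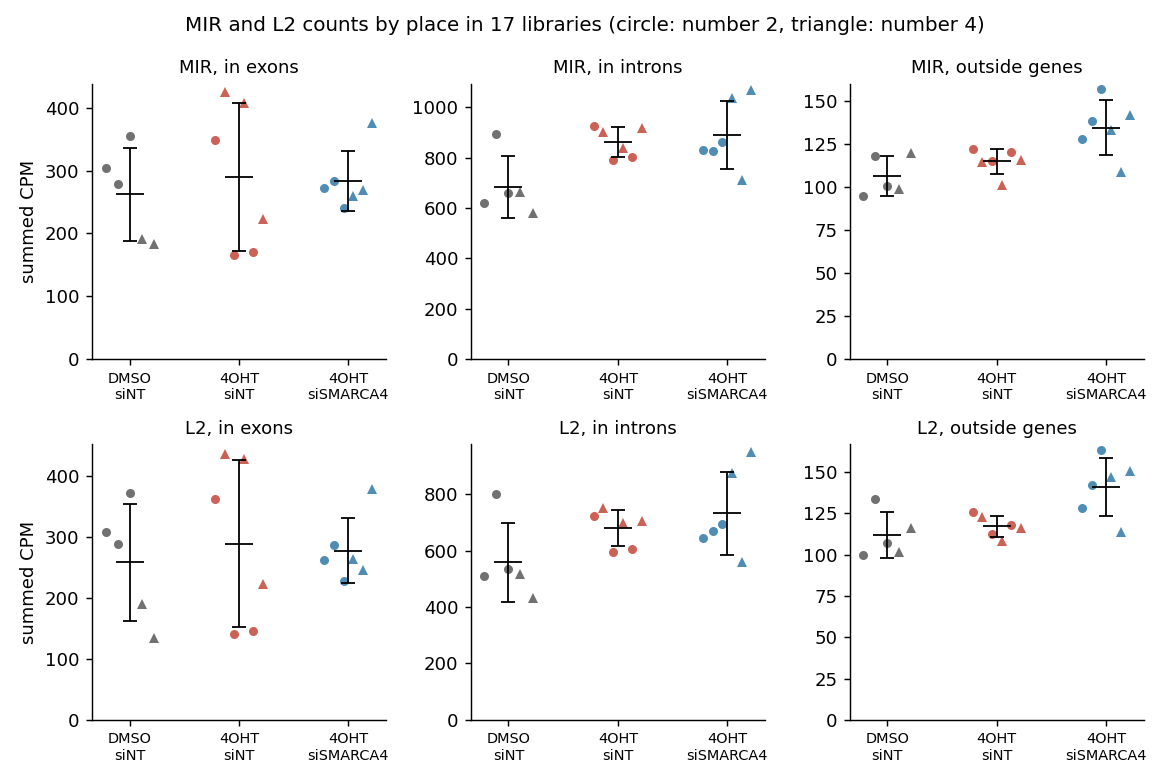
Summed CPM of MIR and L2 copies in exons, in introns and outside genes, 1 point per library in the 3 groups, with circles for siRNA number 2, triangles for number 4 and a black bar at the mean ± SD. In 4OHT siNT the exonic sums spread from 140 to 436 CPM for L2 and from 165 to 425 CPM for MIR, while the sums outside genes stay between 101 and 126 CPM for both.

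In DMSO siNT and 4OHT siNT the exonic sums were the least steady part of both families relative to their level, while in 4OHT siSMARCA4 L2 summed to 277 ± 53.2 CPM in exons and 732 ± 149 in introns. Exonic L2 was at 362, 436 and 427 CPM in 4OHT siNT 2-1VM, 4-1VM and 4-2VM and at 140, 146 and 223 in 2-2VM, 2-3VM and 4-3VM. Exonic MIR followed the same libraries, at 349, 425 and 407 against 165, 171 and 222 CPM. Over 178 exonic loci with a mean of at least 0.5 CPM, the median coefficient of variation was 0.55 in DMSO siNT, 0.73 in 4OHT siNT and 0.31 in 4OHT siSMARCA4. Over 247 intronic loci it was 0.35, 0.24 and 0.33 in the same order, and over 33 loci outside genes 0.41, 0.24 and 0.28. Single loci show it: the L2b copy in an exon of IGFBP4, which binds insulin-like growth factors, read 12.6, 7.74, 13.2, 3.91 and 2.34 CPM in DMSO siNT and 0.999, 7.07 and 13.6 in 4OHT siNT. The L2b copy in an exon of SH3BP4 read 12.4, 7.74, 9.54, 2.30 and 0.957 CPM in DMSO siNT and 1.22, 6.21 and 12.9 in 4OHT siNT. In both, the DMSO siNT libraries with siRNA number 4 were the 2 lowest.

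The exonic difference between 4OHT and DMSO went in opposite directions for the 2 siRNA numbers in the siNT libraries. This was tested after the values were seen, as the difference between the numbers in the quasi-likelihood fit. Exonic L2 had a log2 difference of -0.58 with number 2 and 1.17 with number 4, and the difference between them was -1.74 (SE 0.49, adjusted p = 0.0301). Exonic MIR had -0.45 and 0.91, and the difference was -1.36 (SE 0.41, adjusted p = 0.0328). In this test 18.1% of the 116 rows passed. Intronic L2 (adjusted p = 0.195), intronic MIR (0.470), L2 outside genes (0.9496) and MIR outside genes (0.571) did not pass. For the knockdown no row of the 116 passed the same test. Number 4 has only 2 libraries in DMSO siNT, and the libraries tagged V there all carry number 2. What the number stands for was not tested.

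The tables hold 19 subfamilies of MIR and L2, and 15 had enough counts to be tested. AmnL2-1 (116 counts), UCON86 (98), X13_LINE (86) and X15_LINE (15) did not. With senescence, 14 of the 15 had a higher estimate and 1 was called, MIRb, where 16.9% of the 1026 subfamilies tested were called. The count for senescence was 7 with siRNA number 4 alone, 6 with the tag as a covariate, 3 with VM libraries alone and 2 with DESeq2, and 0 with 7 other alternatives of scaling, filter, block or covariate. The median log2 difference of the 15 was 0.28, beside 0.05 for all 1026. With the knockdown, 10 of the 15 had a higher estimate and 1 was called lower, L2-2_Mam, where 20.4% of all subfamilies were called. The median of the 15 was 0.09, beside 0.25 for all 1026.

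MIRb, the subfamily with the most copies (222026 loci) and the most counts (369834), rose with senescence. It stood at 347 ± 55.1 CPM in DMSO siNT, with a range of 295 to 436, at 438 ± 46.5 in 4OHT siNT, with a range of 381 to 492.96, and at 436 ± 64.2 in 4OHT siSMARCA4. The highest DMSO siNT library lay within the range of 4OHT siNT. The log2 difference was 0.34 (SE 0.11, adjusted p = 0.0497), and the call was lost without any library except DMSO siNT 2-2V, 4OHT siNT 2-2VM or 4OHT siNT 2-3VM (adjusted p 0.00919 to 0.124). It was lost in 16 of 23 alternatives in all, with estimates from 0.10 with siRNA number 2 alone (adjusted p = 0.632) to 0.59 with number 4 alone (adjusted p = 0.0435). MIR1_Amn had the highest estimate of the MIR subfamilies, 0.48 (SE 0.18, adjusted p = 0.0768), with 59.6 ± 13.7 CPM in DMSO siNT and 83.3 ± 23.3 in 4OHT siNT. MIR itself had 0.23 (SE 0.09, adjusted p = 0.0962), MIR3 had 0.34 (SE 0.15, adjusted p = 0.138) and MIRc had 0.18 (SE 0.13, adjusted p = 0.404).

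Among the common L2 subfamilies the senescence estimates were close to each other. They were 0.28 for L2a, 0.30 for L2b, 0.29 for L2d and 0.29 for L2, and 0.18 for L2c and 0.10 for L2d2, each with a standard error of 0.14 to 0.19 and none called. With the knockdown the same subfamilies lay between -0.02 (L2b) and 0.12 (L2d2), and the MIR subfamilies between -0.21 (MIR1_Amn) and 0.10 (MIR). The 95% intervals of the 4 most read were -0.22 to 0.20 for MIRb, -0.06 to 0.27 for MIR, -0.33 to 0.28 for L2b and -0.20 to 0.41 for L2c.

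L2-2_Mam fell with the knockdown, from 2.57 ± 2.63 to 0.354 ± 0.148 CPM, a log2 difference of -2.84 (SE 0.56, adjusted p = 0.00493), and it stood at 2.78 ± 0.412 CPM in DMSO siNT. The groups of 4OHT did not overlap, but in 4OHT siNT the libraries 4-2VM and 4-3VM read 5.74 and 6.17 CPM where the other 4 read 0.676 to 1.054. The log2 difference was -1.09 for siRNA number 2 and -3.68 for number 4, and the difference between the numbers did not pass (adjusted p = 0.926). It was -2.44 without 4-2VM and -2.37 without 4-3VM. The call was lost in 4 of 24 alternatives, with the libraries of number 2 alone (adjusted p = 0.0639) or number 4 alone (0.0536), a block on the full label (0.235) or sparse repeats as a covariate (0.1998). Of its 1690 counts, 94.0% lay at 1 copy that touches an exon of COL1A2, a type I collagen chain. L2-1_Crp showed the same concentration without a called change: 92.7% of its counts lay at 1 exonic copy at EIF4A1, a translation initiation helicase, and its log2 difference with the knockdown was 0.16 (SE 0.45, adjusted p = 0.823). In the other small subfamilies tested, L2-1_AMi (321 counts) and X24_LINE (307 counts), the leading copy held 25.2% and 36.5%. In the large subfamilies it held less, from 1.04% of counts for MIRb to 10.3% for MIR1_Amn.

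**Figure D2:**
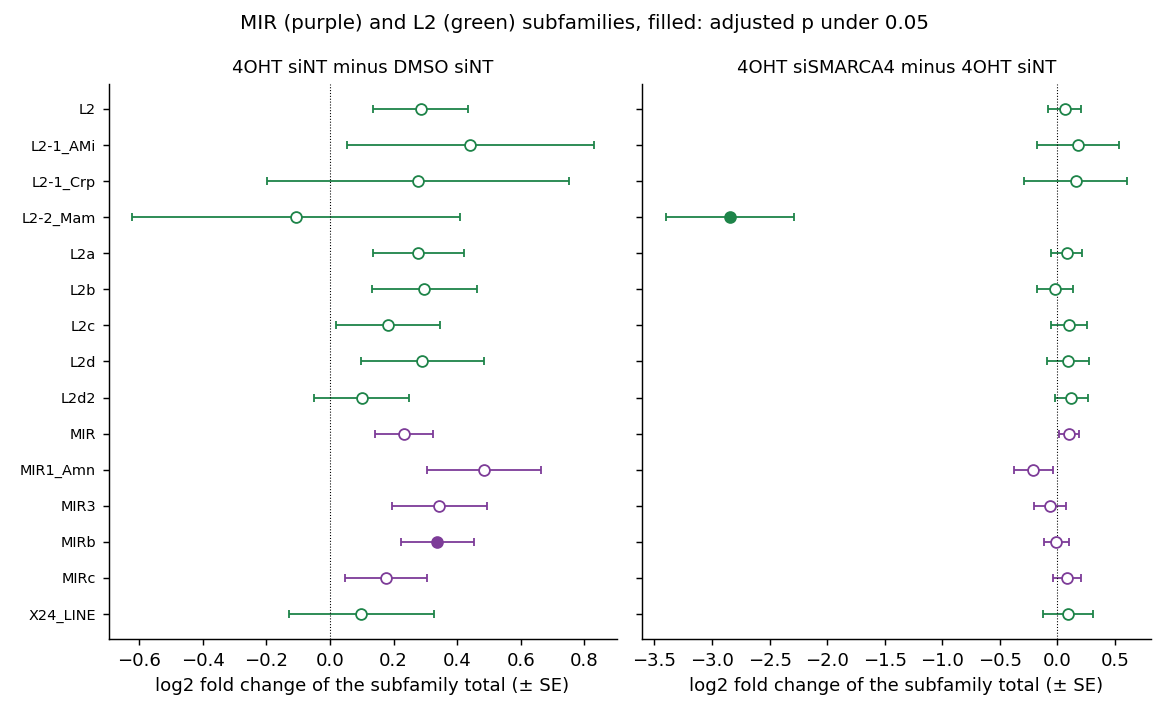
Log2 difference with its standard error for the 15 MIR and L2 subfamilies tested, for senescence (4OHT siNT minus DMSO siNT) and for the knockdown (4OHT siSMARCA4 minus 4OHT siNT). The estimates for senescence lie between -0.11 (L2-2_Mam) and 0.48 (MIR1_Amn), and those for the knockdown lie within 0.21 of 0 except L2-2_Mam at -2.84.

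Single loci could be tested only where they were read often enough. Of 13026 repeat loci that passed the filter on low counts, 1206 were MIR, holding 42.2% of MIR counts, and 997 were L2, holding 40.6% of L2 counts. With senescence 536 of these 2203 were called higher (24.3%) and 144 lower (6.54%), while 18.1% of all loci tested were called higher and 9.32% lower. With the knockdown 34 were called higher (1.54%) and 82 lower (3.72%), while 4.36% of all loci tested were called higher and 1.8% lower. The number of knockdown calls depended on the fit. From 75 MIR and 41 L2 loci, the calls went to 57 and 53 with VM libraries alone, 72 and 56 with the tag as a covariate, 47 and 27 with a block on the replicate digit, 4 and 4 with the libraries of siRNA number 2 alone, 1 and 0 with number 4 alone, 1 and 0 with a block on the full label, and 2 and 0 with sparse repeats as a covariate. The median log2 difference of the tested MIR and L2 loci was 0.39 for senescence, beside 0.16 for all tested loci, and -0.13 for the knockdown, beside 0.14. Loci pass the filter through the group where they are read most, so these counts describe the loci that passed and not the families. Scaling on repeats alone moved the median of all tested loci to 0.04 for senescence and -0.05 for the knockdown. The knockdown calls were then 8 higher and 80 lower for MIR and 9 higher and 38 lower for L2, against 17 and 58 for MIR and 17 and 24 for L2 as first given.

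By place, introns held 61.1% of the tested MIR and L2 loci and 68.7% of the senescence calls, and the share of loci called was highest outside genes. Of 208 loci outside genes 65 were called higher (31.2%) and 32 lower (15.4%), where 23.1% and 15.99% of all repeat loci tested there were. Of 1347 intronic loci 382 were called higher (28.4%) and 85 lower (6.31%), where 19.9% and 8.13% of all intronic repeat loci were. Of 648 exonic loci 89 were called higher (13.7%) and 27 lower (4.17%), beside 9.51% and 7.76%. With the knockdown the intronic loci gave 26 higher and 65 lower calls, the exonic ones 5 and 7 and those outside genes 3 and 10. Among all repeat loci the shares called higher and lower were 5.08% and 1.97% in introns, 1.958% and 0.804% in exons and 4.89% and 2.47% outside genes. MIR and L2 differed in how the knockdown calls split: intronic MIR had 13 higher and 47 lower, and intronic L2 13 higher and 18 lower, a difference that was not tested. Leaving out 1 library moved the number of knockdown calls, from 75 for MIR to between 35 (without 4OHT siNT 2-1VM) and 74 (without 4OHT siSMARCA4 4-3V), and from 41 for L2 to between 19 (without 4OHT siSMARCA4 2-1VM or 2-3VM) and 50 (without 4OHT siSMARCA4 4-3V). Lower calls outnumbered higher ones for MIR each time. For L2 they did not without 4OHT siNT 4-1VM or without 4OHT siSMARCA4 2-1VM, 2-3V, 2-3VM or 4-2VM, where 8 to 11 lower calls stood beside 10 to 12 higher ones.

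Copies called in either comparison mostly lay in genes called the same way. A tested MIR or L2 locus lay within a tested gene in 1967 cases, over 1345 genes. Of the 571 of these loci called with senescence, 443 (77.6%) had a gene called in the same direction, 85 a gene that was not called and 43 a gene called in the opposite direction. Of the 101 loci called with the knockdown, 63 (62.4%) had a gene called the same way, 37 a gene that was not called and 1 a gene called the opposite way. Over all 1967 loci, called or not, the gene was called in either direction for 63.2% with senescence and for 33.0% with the knockdown. Across the 1967 loci, Pearson's r between the locus and the gene difference was 0.80 for senescence (0.90 for exonic and 0.75 for intronic loci) and 0.44 for the knockdown (0.51 and 0.42). These are descriptions across loci that share libraries, and in part genes and reads, and the difference between the comparisons was not tested.

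**Figure D3:**
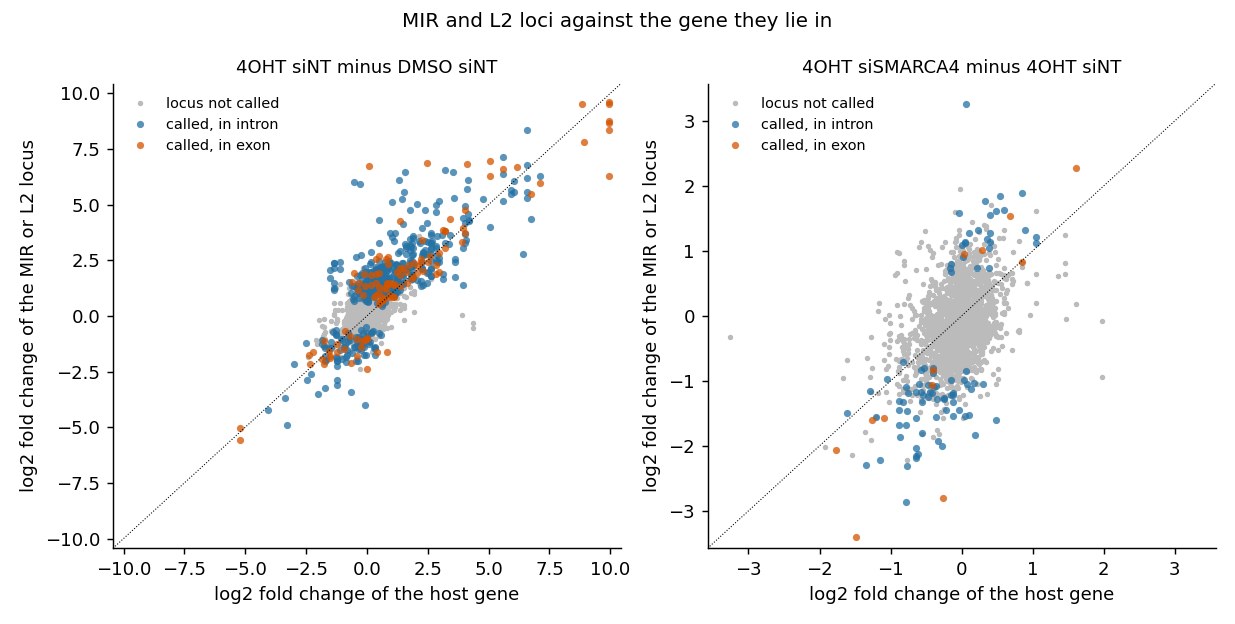
Log2 difference of each tested MIR or L2 locus against that of the gene it lies in, for senescence and for the knockdown, with exonic and intronic loci marked apart. Pearson's r across the loci is 0.80 for senescence and 0.44 for the knockdown.

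With senescence 396 genes held a called MIR or L2 locus, and 43 of them held 3 or more, 169 loci in all. Whether this is more than the number of copies tested per gene gives was not tested. In 42 of the 43 genes all called loci went 1 way, where 24.3% of all tested MIR and L2 loci were called higher and 6.54% lower. Copies of 1 gene can share a transcript and its libraries, so they are not separate observations. The genes below were picked for their number of called loci after the values were seen. WLS, which carries Wnt ligands to the cell surface, had 12 of 13 tested copies called higher, by 1.79 to 3.75, where the gene rose by 2.64. Its most read copy, MIR3 at chr1:68120150-68120269, stood at 1.26, 0.924, 1.07, 1.65 and 0.833 CPM in DMSO siNT and at 3.36, 4.05 and 4.62 in 4OHT siNT, without overlap, a rise of 1.81 (SE 0.24, adjusted p = 1.59e-05). In 4OHT siSMARCA4 it stood at 1.26, 2.07 and 3.39 CPM and was called lower by 0.84 (SE 0.22, adjusted p = 0.0313), with overlap, a call lost without any library except 4OHT siNT 2-2VM or 2-3VM or 4OHT siSMARCA4 4-2V or 4-3V (adjusted p up to 0.0696). The 13th copy had 1.67 (adjusted p = 0.0789), and the call of L2d at 68122919 was lost without any of DMSO siNT 2-2V, DMSO siNT 4-2VM, 4OHT siNT 2-1VM, 4-1VM or 4-2VM (adjusted p up to 0.085). LRP11 went the other way: all 6 tested copies fell, by 1.91 to 3.10, where the gene fell by 1.22. The most read of them, L2b at chr6:149822783-149823569, stood at 4.00, 3.92, 3.92, 4.15 and 1.13 CPM in DMSO siNT and at 0.534, 0.868 and 1.14 in 4OHT siNT. It fell by 2.02 (SE 0.30, adjusted p = 4.04e-05), and 1 DMSO siNT library, 4-3VM, lay within the range of 4OHT siNT.

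ARHGAP22, a GTPase-activating protein, had 7 of 8 tested copies called higher, by 1.32 to 1.88, where the gene rose by 0.56. The L2b copy whose sequence is given above is 1 of them. It stood at 1.71, 1.83, 1.64, 1.97 and 2.43 CPM in DMSO siNT, at 4.02, 4.91 and 5.41 in 4OHT siNT and at 3.78, 4.55 and 7.42 in 4OHT siSMARCA4. All libraries of 4OHT lay above all of DMSO siNT, the rise with senescence was 1.32 (SE 0.17, adjusted p = 1.01e-05) and the log2 difference with the knockdown was 0.08 (SE 0.16, adjusted p = 0.812). The MIRb copy at 48581420 was called lower with the knockdown, by 1.44 (SE 0.35, adjusted p = 0.024), with overlap, and the call was lost without 4OHT siNT 4-3VM or 4OHT siSMARCA4 2-3V or 2-3VM (adjusted p up to 0.0529). PLAT, tissue plasminogen activator, holds the intronic MIRb copy that is the third most read among intronic MIR. It rose from 0.964, 1.13, 1.28, 0.781 and 1.65 CPM to 5.38, 6.26 and 6.85, by 2.42 (SE 0.18, adjusted p = 1.24e-08), where the gene rose by 2.87. It stood at 3.07, 4.55 and 5.17 CPM in 4OHT siSMARCA4, below all libraries of 4OHT siNT, yet the difference of -0.49 did not pass (SE 0.16, adjusted p = 0.0656).

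Some copies went from no count to clear signal. A copy without counts in DMSO siNT could pass the filter only through the 4OHT groups, so with senescence it could only be called higher. TNFSF15, a ligand of the TNF family, had all 6 tested copies called higher, where the gene, at 0.428 CPM in DMSO siNT, rose by 9.94. The MIR3 copy at chr9:114785136-114785334 was without counts in the 5 libraries of DMSO siNT and stood at 0.103, 1.86 and 3.79 CPM in 4OHT siNT. With 573 counts against 0, and a floor of 3 counts over the DMSO group, it was at least 163-fold higher (adjusted p = 0.000235). A second MIR3 copy in TNFSF15 was at least 153-fold higher (536 counts against 0), an L2c copy at least 91.5-fold (321 against 0) and an L2a copy at least 84.7-fold (297 against 0). The L2b copy in an exon of CXCL1, a neutrophil-attracting chemokine, read 0.152, 1.37 and 4.33 CPM in 4OHT siNT and no count in DMSO siNT, at least 153-fold higher (536 against 0, adjusted p = 0.000154). Of the tested MIR and L2 loci, 29 had no count in 1 of the groups compared.

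Outside genes the clearest case was the MIRb copy at chr7:115301649-115301797, 70294 bp from LINC01392. It had no count in DMSO siNT, 0.990, 2.15 and 3.01 CPM in 4OHT siNT and 2.37, 4.31 and 5.39 in 4OHT siSMARCA4. With senescence it was at least 179-fold higher (628 counts against 0, adjusted p = 4.22e-08). Without counts in DMSO siNT, this copy too could only be called higher. With the knockdown it rose by 1.00 (SE 0.27, adjusted p = 0.0381), the groups overlapped, and the call was lost without any library except 4OHT siNT 4-2VM or 4OHT siSMARCA4 2-1VM (adjusted p 0.0365 to 0.0863). Near genes, the L2a copy 113 bp from ZNF800 rose with senescence by 1.17 (SE 0.25, adjusted p = 0.00166), from 0.797, 0.575, 0.660, 0.658 and 0.461 CPM to 1.12, 1.32 and 1.86. The MIR3 copy 895 bp from ANXA6 fell by 0.75 (SE 0.19, adjusted p = 0.00586), from 1.965, 2.28, 3.37, 2.63 and 3.33 CPM to 1.28, 1.52 and 2.08. Its groups overlapped.

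Of the deepest falls with senescence, those in DCN, ARSJ and DDAH1 lay in genes that fell. The falls given here were picked among called loci whose groups did not overlap. The copies in DCN, NREP and ZFHX4-AS1 could pass the filter only through DMSO siNT, so with senescence they could only be called lower. The MIRb copy in an exon of DCN, which encodes the proteoglycan decorin, stood at 2.11, 0.780, 0.749, 0.247 and 0.213 CPM in DMSO siNT and at 0, 0.00906 and 0.0928 in 4OHT siNT, where the gene fell by 5.22. It fell by 5.03 (SE 0.74, adjusted p = 4.36e-05) without overlap. The L2c copy beside it had 150 counts against 3, a ratio of 58.5 (95% interval 19.6 to 287, counting error only). The MIR3 copy in an intron of NREP, which also lies within STARD4-AS1, stood at 0.389, 0.431, 0.268, 0.452 and 0.283 CPM in DMSO siNT and had 95 counts against 3, a ratio of 37.0 (95% interval 12.3 to 183). MIRc in ZFHX4-AS1 fell by 4.22. L2d2 in an intron of ARSJ fell by 3.49, where the gene fell by 2.00. L2d in an intron of DDAH1 fell by 3.25, where the gene fell by 1.72.

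The knockdown calls at single loci are those of the fit on all libraries. The largest rises and falls named by rule were picked among called loci whose groups did not overlap. Lack of overlap in the comparison a locus was picked for thus came with the choice. A copy that could pass the filter through 1 group alone could only be called with that group higher. Alternatives were run for 32 knockdown calls, at the loci named by rule and those in genes described for several copies. Of these 32, 31 lost the call with the full-label block, 31 with sparse repeats as a covariate, 30 with number 2 alone and 31 with number 4 alone. The call was lost by 10 with no filter, 9 with the block on the digit, 9 with VM libraries alone and 8 with the tag as a covariate. Of the 31 copies called higher in a tested gene, 16 lay in a gene that was not called, and of the 70 called lower, 21 did. Over all 1967 tested loci in tested genes, called or not, the gene was called for 33.0%. The rise that stood apart most from its gene was the MIRb copy in an intron of SNX9, a sorting nexin of endocytosis. It read 0.0185, 0, 0, 0.0206 and 0 CPM in DMSO siNT, 0.0689, 0.139 and 0.172 in 4OHT siNT and 1.00, 1.27 and 1.58 in 4OHT siSMARCA4. All 6 libraries of 4OHT siSMARCA4 lay above all of 4OHT siNT, and the rise was 3.27 (SE 0.29, adjusted p = 4.95e-06). This copy could pass the filter only through 4OHT siSMARCA4, so with the knockdown it could only be called higher. SNX9 itself differed by 0.06 (adjusted p = 0.659). The call held in 23 of 24 alternatives. With senescence the copy had 40 counts against 2, a ratio of 17.1 (95% interval 4.44 to 146, counting error only).

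A neighbouring MIRc and L2b copy in MTX1P1, a pseudogene of metaxin 1, rose with both senescence and the knockdown. The pseudogene has a near-identical parent gene close by, so reads may be shared between them and the levels are uncertain. Such sharing was not measured. MIRc stood at 3.13, 3.10, 2.98, 3.00 and 1.93 CPM in DMSO siNT, at 3.56, 3.82 and 4.37 in 4OHT siNT and at 5.53, 6.24 and 6.63 in 4OHT siSMARCA4. The 3 groups did not overlap, and the rises were 0.45 (SE 0.13, adjusted p = 0.0111) with senescence and 0.68 (SE 0.12, adjusted p = 0.00503) with the knockdown. L2b stood at 3.45, 2.63, 2.85, 2.86 and 3.21 CPM in DMSO siNT, at 3.71, 4.43 and 4.97 in 4OHT siNT and at 5.20, 8.01 and 8.69 in 4OHT siSMARCA4, also without overlap, with rises of 0.56 (SE 0.14, adjusted p = 0.0042) and 0.79 (SE 0.13, adjusted p = 0.00366). The pseudogene's own row differed by -0.14 with the knockdown and was not called (adjusted p = 0.869).

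Of the other rises with the knockdown, that of MIRc in an intron of LPCAT2 (1.77, adjusted p = 0.0247) lay in a gene that was not called (0.33, adjusted p = 0.180), those in TEKT4P2, PTGS2 and NRG1 lay in genes that rose, and that near RPL36AP36 was 1 of 3 outside genes. MIRc in an exon of TEKT4P2, whose name marks it as a pseudogene of the tektin family and whose reads may be shared with close copies, stood at 0.297, 0.287, 0.321, 0.206 and 0.266 CPM in DMSO siNT, at 0.0544, 0.144 and 0.186 in 4OHT siNT and at 0.2002, 0.3003 and 0.758 in 4OHT siSMARCA4. It rose by 1.54 (SE 0.35, adjusted p = 0.0171) without overlap, a call kept without any 1 library, where the gene rose by 0.68 (adjusted p = 0.0187). Its log2 difference with senescence was -1.03 (adjusted p = 0.0442), a call lost without any library except DMSO siNT 4-2VM or 4OHT siNT 2-1VM (adjusted p up to 0.0933). The L2d copy in an exon of PTGS2, cyclooxygenase 2, had 1 count in DMSO siNT, stood at 0.0172, 0.242 and 0.538 CPM in 4OHT siNT and at 0.622, 1.11 and 2.92 in 4OHT siSMARCA4. It rose by 2.27 (SE 0.55, adjusted p = 0.024) without overlap, where the gene rose by 1.61 (adjusted p = 8.06e-06). The L2c copy in an intron of NRG1, a ligand of ERBB receptors, read 0, 0.0411, 0.0178, 0 and 0.0177 CPM in DMSO siNT, 0.0762, 0.165 and 0.276 in 4OHT siNT and 0.321, 0.547 and 0.892 in 4OHT siSMARCA4. It rose by 1.85 (SE 0.36, adjusted p = 0.00972) without overlap, where the gene rose by 0.53 (adjusted p = 0.0354). The L2 copy at chr10:13159061-13159361, 116 bp from the pseudogene RPL36AP36, fell with senescence and rose with the knockdown. It stood at 0.185, 0.287, 0.196, 0.411 and 0.461 CPM, then 0.0544, 0.106 and 0.172, then 0.261, 0.375 and 0.588, with log2 differences of -1.42 (SE 0.35, adjusted p = 0.00449) and 1.85 (SE 0.33, adjusted p = 0.00609). The groups did not overlap in either step.

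The falls with the knockdown included copies in collagen genes. The L2-2_Mam copy that shares 59 bases with exons of COL1A2, chr7:94419493-94419667, stood at 2.35, 3.12, 2.94, 2.98 and 2.39 CPM in DMSO siNT, at 0.603, 0.886 and 6.13 in 4OHT siNT and at 0.0601, 0.228 and 0.362 in 4OHT siSMARCA4. It fell by 3.41 with the knockdown (SE 0.60, adjusted p = 0.00559) without overlap, where the gene fell by 1.48. Its difference was -1.39 with siRNA number 2 alone (adjusted p = 0.0544) and -4.35 with number 4 alone (adjusted p = 0.093). The L2b copy in an intron of COL5A1, a type V collagen chain, read 0, 0.144, 0.0714, 0.0823 and 0.0531 CPM in DMSO siNT, 0.163, 0.348 and 0.464 in 4OHT siNT and 0.0364, 0.0781 and 0.0942 in 4OHT siSMARCA4. It rose by 2.22 with senescence (SE 0.48, adjusted p = 0.00159) and fell by 2.21 with the knockdown (SE 0.45, adjusted p = 0.0104), without overlap in either step, where the gene fell by 1.15 with the knockdown. Outside genes, the MIRb copy at chr9:116013393-116013644, 428 bp from ENSG00000228707, stood at 0.0741, 0.0821, 0.0178, 0.103 and 0 CPM in DMSO siNT, at 0.217, 0.4201 and 0.464 in 4OHT siNT and at 0.0194, 0.0571 and 0.188 in 4OHT siSMARCA4. It rose by 2.75 with senescence (SE 0.60, adjusted p = 0.00176) and fell by 2.23 with the knockdown (SE 0.53, adjusted p = 0.0224), without overlap in either step, and both calls were kept without any 1 library. This MIRb copy and the L2b copy in COL5A1 could pass the filter only through 4OHT siNT. They could thus only be called higher with senescence and lower with the knockdown. The calls of 4 other named copies depended on single libraries. The MIR copy in SPRY4 (-2.30, adjusted p = 0.0273) lost its call without any of 4OHT siNT 4-2VM or 4-3VM or 4OHT siSMARCA4 2-1VM, 2-3V, 2-3VM or 4-2VM (adjusted p up to 0.0606). The L2b copy in ACTG2 (-2.06, adjusted p = 0.0247) lost it without 4OHT siSMARCA4 2-1VM or 2-3V (adjusted p up to 0.0568), and the MIRc copy in LPCAT2 (1.77, adjusted p = 0.0247) without 4OHT siNT 2-1VM or 4OHT siSMARCA4 2-1VM, 2-3V or 2-3VM (adjusted p up to 0.0637). The MIR3 copy in ENSG00000238178 (-2.64, adjusted p = 0.0416) lost it without any library except 4OHT siNT 4-3VM or 4OHT siSMARCA4 4-2V (adjusted p up to 0.0877).

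**Figure D4:**
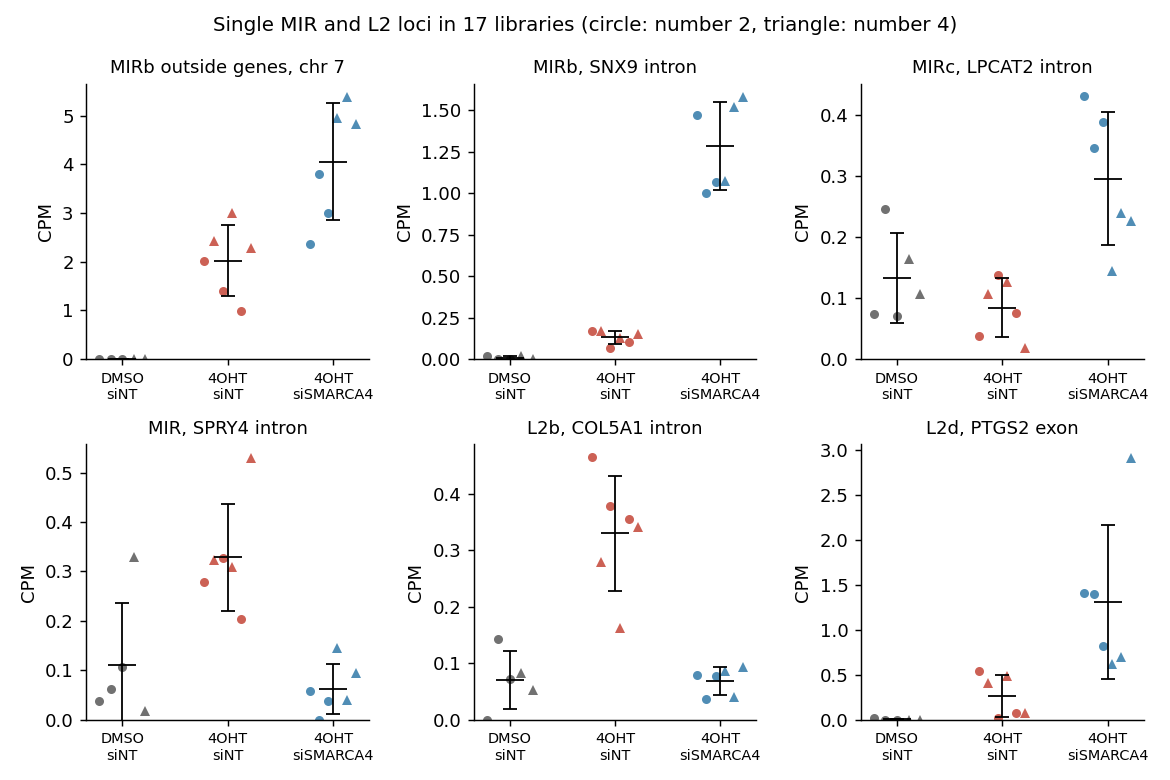
CPM per library of selected MIR and L2 loci in DMSO siNT, 4OHT siNT and 4OHT siSMARCA4, with circles for siRNA number 2 and triangles for number 4. For the MIRb copy in SNX9 the 6 libraries of 4OHT siSMARCA4 (1.00 to 1.58 CPM) lie above all others, which reach 0.172 CPM.

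Only 4 genes had 3 or more copies called with the knockdown, F3, FAM20C, SPARC and TGM2, and all 13 called copies in them fell. Over all tested MIR and L2 loci 34 were called higher and 82 lower, and copies of 1 gene are not separate observations. F3, which encodes tissue factor and starts coagulation, had all 4 of its tested copies called lower, by 1.57 to 2.19, where the gene stood at 258 ± 53.9, 592 ± 47.7 and 380 ± 93.9 CPM in DMSO siNT, 4OHT siNT and 4OHT siSMARCA4 and fell by 0.64 (SE 0.14, adjusted p = 0.00346). MIR3, whose sequence is given above with the other 3, stood at 0.778, 0.636, 0.178, 0.514 and 0.195 CPM in DMSO siNT, at 1.09, 1.26 and 1.48 in 4OHT siNT and at 0.130, 0.255 and 0.490 in 4OHT siSMARCA4. It rose by 1.46 with senescence (SE 0.34, adjusted p = 0.00336) and fell by 2.19 with the knockdown (SE 0.34, adjusted p = 0.00277), without overlap in either step. MIRb stood at 0.408, 0.349, 0.0535, 0.247 and 0.0531 CPM, then 0.435, 0.609 and 0.723, then 0.120, 0.133 and 0.151, a rise of 1.44 (SE 0.39, adjusted p = 0.00901) and a fall of 2.15 (SE 0.38, adjusted p = 0.00609), again without overlap. L2d2 stood at 0.667, 0.719, 0.339, 0.267 and 0.301 CPM, then 0.705, 1.13 and 1.57, then 0.118, 0.415 and 0.564. It fell by 1.57 with the knockdown (SE 0.33, adjusted p = 0.0121) without overlap and rose by 1.30 with senescence (adjusted p = 0.00766), with overlap. MIR, the weakest, fell by 2.03 (SE 0.55, adjusted p = 0.0363) with overlap, and leaving out any library other than 4OHT siNT 4-2VM or 2-3VM or 4OHT siSMARCA4 4-2V or 4-3V ended its call (adjusted p 0.0173 to 0.0853). All 4 copies fell by more than the gene did, a difference that was not tested. F3 was picked for its called copies. At their standard errors of 0.33 to 0.55, a fall of 0.64 could not have been called, so larger falls came with the choice.

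SPARC, a matricellular protein gene, had 3 of 5 tested copies called lower, where the gene fell by 0.79 (adjusted p = 0.000238). The MIR copy at chr5:151671071-151671303 stood at 0.5004, 0.575, 0.464, 0.576 and 0.0709 CPM in DMSO siNT, at 0.322, 0.362 and 0.457 in 4OHT siNT and at 0.0364, 0.125 and 0.174 in 4OHT siSMARCA4. It fell by 1.67 (SE 0.40, adjusted p = 0.0229) without overlap in 4OHT. MIR3 at 151665052 fell by 2.87 (SE 0.60, adjusted p = 0.0124), with overlap, and MIR3 at 151669481 fell by 1.09 (adjusted p = 0.0467), a call lost without any library except 4OHT siSMARCA4 2-3V or 4-3V (adjusted p 0.0457 to 0.102). The falls in TGM2 and FAM20C went with rises in senescence. In TGM2, 5 of 6 tested copies were called higher with senescence and 3 of 6 lower with the knockdown. The most read of the 6, an exonic MIR1_Amn copy, was called in neither (1.85, adjusted p = 0.0618, and -0.79, adjusted p = 0.51). MIR3 rose by 2.95, MIRb by 3.44 and L2b by 2.39 with senescence, and they fell by 1.44 (adjusted p = 0.0326), 1.67 (0.0411) and 1.30 (0.024) with the knockdown, where the gene rose by 1.76 and fell by 0.88. The knockdown calls of MIR3 and MIRb were lost without any library except 4OHT siNT 2-2VM or 2-3VM or 4OHT siSMARCA4 4-2V or 4-3V (adjusted p up to 0.0914), and that of L2b was lost without 4OHT siNT 4-1VM or 4OHT siSMARCA4 2-1VM or 2-3VM (adjusted p up to 0.0568). In FAM20C, a Golgi kinase of secreted proteins, all 5 tested copies rose with senescence, by 2.19 to 2.33, where the gene rose by 0.87. With the knockdown 3 of the 5 were called lower. Its MIRc, MIR1_Amn and MIRb copies fell by 0.83 (adjusted p = 0.0363), 0.80 (0.031) and 0.88 (0.0242) with the knockdown. MIRc lost the call without any library except 4OHT siNT 2-2VM or 4OHT siSMARCA4 4-2V, and MIR1_Amn without any except 4OHT siNT 2-2VM, 2-3VM or 4-3VM or 4OHT siSMARCA4 4-2V or 4-3V. MIRb lost it without 4OHT siNT 2-1VM or 4-2VM, and the adjusted p reached 0.0812 over the 3 copies.

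RNF141, a ring finger protein gene, was the clearest case of copies that moved against their gene. The gene stood at 38.2 ± 6.35 CPM in DMSO siNT, 15.01 ± 1.24 in 4OHT siNT and 15.5 ± 1.74 in 4OHT siSMARCA4, a fall of 1.35 with senescence (SE 0.11, adjusted p = 3.3e-09) and a difference of 0.04 with the knockdown (adjusted p = 0.814). All 4 of its tested copies rose with senescence, by 1.49 to 2.38. The L2c copy at chr11:10521110-10521355 stood at 0.0556, 0.185, 0.0892, 0.0411 and 0.106 CPM in DMSO siNT, at 0.453, 0.496 and 0.559 in 4OHT siNT and at 0.741, 1.03 and 1.44 in 4OHT siSMARCA4. The 3 groups did not overlap, with rises of 2.38 (SE 0.30, adjusted p = 8.38e-06) and 1.12 (SE 0.24, adjusted p = 0.0132). The L2d2 copy next to it, chr11:10521015-10521099, stood at 0.111, 0.0411, 0.125, 0.0823 and 0.159 CPM, then 0.217, 0.291 and 0.396, then 0.541, 0.651 and 0.883, with rises of 1.49 (adjusted p = 0.000821) and 1.13 (adjusted p = 0.0146) and no overlap. The MIR copy at chr11:10522745-10522965 stood at 0.185, 0.103, 0.0535, 0.0823 and 0.0354 CPM, then 0.236, 0.361 and 0.705, then 0.389, 0.518 and 0.791. It rose by 2.14 with senescence (adjusted p = 0.000340), and its knockdown difference of 0.48 did not pass (adjusted p = 0.389). A second L2c copy rose by 2.37 with senescence (adjusted p = 0.0498), a call lost without any library except DMSO siNT 2-2V or 4OHT siNT 2-2VM (adjusted p up to 0.110).

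RNF141 lies on the minus strand at chr11:10511673-10541230, and AMPD3, which encodes an AMP deaminase, ends upstream of these copies on the plus strand, at chr11:10308313-10507579. AMPD3 stood at 27.1 ± 5.56 CPM in DMSO siNT, 191 ± 27.6 in 4OHT siNT and 242 ± 27.1 in 4OHT siSMARCA4. It rose by 2.82 with senescence and by 0.34 with the knockdown (adjusted p = 0.0452), and all 6 of its tested MIR copies rose with senescence. In 4 of them the rise was 2.28 to 3.13, and the other 2 had at most 1 count in DMSO siNT. Whether the RNA read at the RNF141 copies belongs to RNF141, to AMPD3 or to another transcript was not tested, since the tables give no strand for a repeat. RBPMS and ERGIC1 also had 3 copies each that rose with senescence, by 1.10 to 1.49 and by 0.66 to 1.37, where the genes fell by 0.36 and 0.53. Among the 43 genes with 3 or more loci called with senescence, NT5E, an ectonucleotidase, was the gene with calls in both directions, with 2 copies higher and 1 lower.

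**Figure D5:**
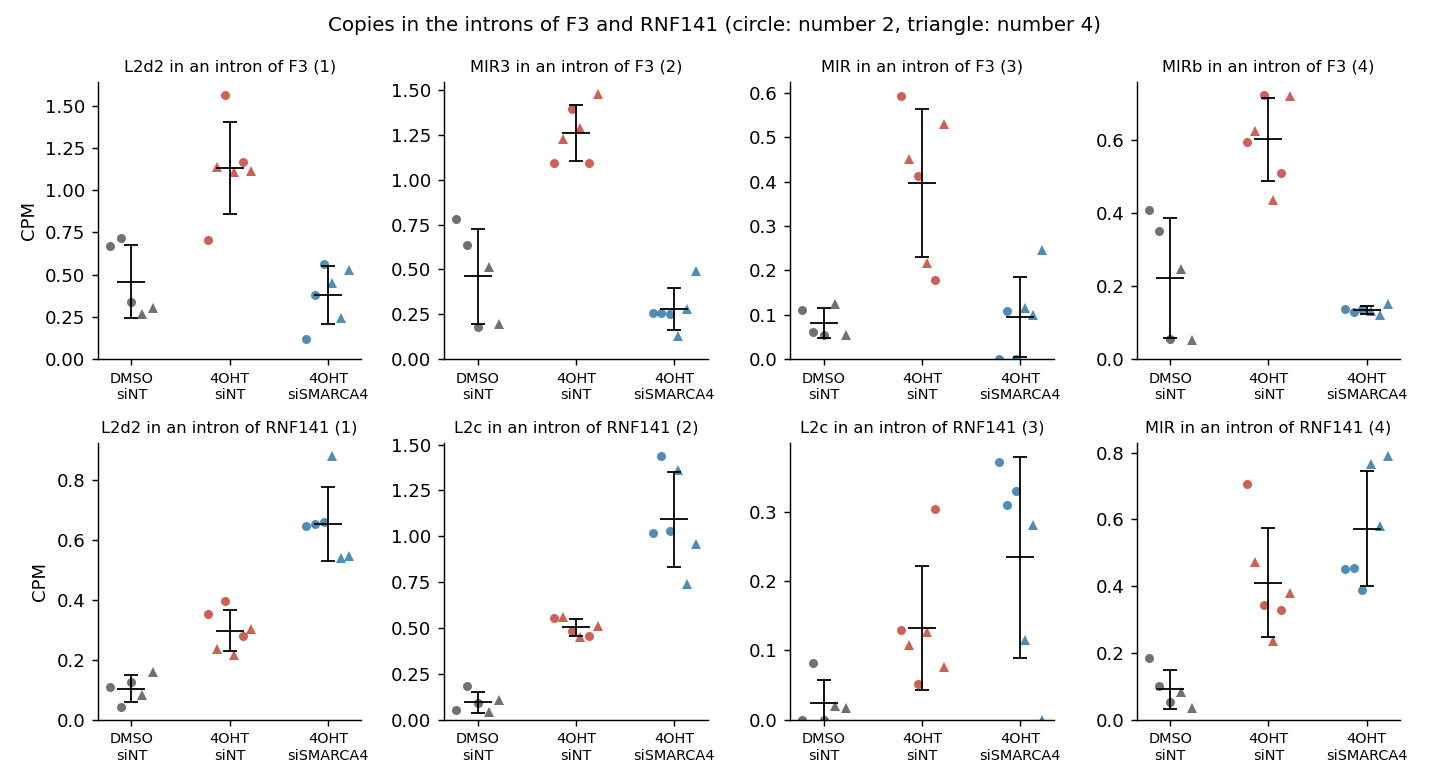
CPM per library of the tested MIR and L2 copies in F3 and in RNF141 in the 3 groups, with circles for siRNA number 2 and triangles for number 4. The copies in F3 are highest in 4OHT siNT, while those in RNF141 are lowest in DMSO siNT, with L2c reaching 0.741 to 1.44 CPM in 4OHT siSMARCA4.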

How the data were processed

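RNA of 17 libraries was analysed, grouped by the labels alone. Values deposited by the authors were whole-number expected counts for genes and single repeat copies, without normalisation, from reads trimmed with Cutadapt (4.7), aligned to GRCh38 with HISAT2 (2.2.1) keeping multiple alignments, and counted with TElocal, which shares multi-mapping reads by maximum likelihood in reverse-stranded mode. Such sharing makes copies with close relatives uncertain.

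The MIR and L2 members and all gene and locus lists were chosen with earlier results of these data known. Counts were summed per family, subfamily and place (exon if any base touched an exon of the annotation supplied for GRCh38, which is not that of the authors). Rows were kept by filterByExpr (minimum count 10, minimum total 15), after loci under 10 counts were left out, and fitted beside all genes over the 3 groups with edgeR (4.0.16, R 4.3.3) by its quasi-likelihood test with TMM scaling. CPM uses these library sizes. A call is an adjusted p under 0.05. The fit was also run on simulated counts of genes and subfamilies, for the knockdown comparison only. Single loci were not simulated, so that run does not bear on their calls. Depth, 39.1 to 69.0 M (1e6) counts, limits single loci to those read about 10 times per library. Named loci were the 3 with most counts per family and place and those with the largest called differences. The latter were picked among called loci whose libraries did not overlap between the groups compared. Alternatives covered scaling, DESeq2 (1.42.0), filters, siRNA number, tag, blocks and left-out libraries. Intervals cover 95% and counting error only where counts are given, and the floor for no count is 3. Whether replicate labels pair libraries could not be told, since each comparison has only 3 same-label pairs. Their deviations correlated from -0.14 to 0.33 for the knockdown and from -0.38 to 0.21 for senescence. Other pairs gave -0.30 to 0.33 and -0.52 to 0.56. No 2 libraries of the same group were duplicates within sampling noise. The closest pair was 4OHT siNT 2-2VM and 2-3VM, with a chi-square per degree of freedom of 5.59 over genes. The next closest, 4OHT siSMARCA4 2-1VM and 2-3VM, had 13.1. Python 3.11.15 with pandas 2.3.3 was used for tables.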

Additional observations from a re-analysis of the deposited data

Results flagged for a closer look

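Of 186 groups of libraries checked, 23 had 1 library apart from the rest by a gap test (12.4%), where chance gives about 1 in 20. Of the 23, 4 are a single count beside none in the other libraries of the group (MIRb and L2c in DCN and MIRc in ZFHX4-AS1 in 4OHT siSMARCA4, and L2d in PTGS2 in DMSO siNT). Such a group always meets the test, so the chance rate does not apply to it. In family sums, 4OHT siSMARCA4 4-3V was high for exonic MIR (376 CPM beside 241 to 284), DMSO siNT 2-2V for intronic MIR (892 beside 581 to 665), intronic L2 (801 beside 432 to 534) and the subfamily MIR (356 beside 268 to 292), and 4OHT siNT 4-2VM was low for MIR outside genes (101 beside 115 to 122).

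At single loci, 4OHT siSMARCA4 4-3V was high at L2b in IGFBP4 (15.7 CPM), L2b in SH3BP4 (12.1), L2d in PTGS2 (2.92), MIR3 in TNFSF15 (5.10 and 3.52 at its copies) and L2a in TNFSF15 (3.79). The library 4OHT siSMARCA4 2-1VM was high, though near 0, at MIRb in DCN (0.0196), L2c in DCN (0.0196) and MIR3 in NREP (0.098), and 4OHT siSMARCA4 2-3VM at MIRc in ZFHX4-AS1 (0.0194). DMSO siNT 4-3VM was high at MIR in RPS19 (46.3) and low at MIRc in MTX1P1 (1.93). DMSO siNT 4-2VM was high at MIR in SPRY4 (0.329), DMSO siNT 2-2VM at L2 in SEC61G-DT (5.07) and DMSO siNT 2-1V at L2d in PTGS2 (0.0185). In 4OHT siNT, 2-1VM was high at MIRb in DCN (0.0928) and 2-3VM at L2b in ACTG2 (0.533). 4OHT siSMARCA4 4-2V was low at L2b in MTX1P1 (5.20).

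The difference of 4OHT minus DMSO in siNT libraries differed between siRNA numbers 2 and 4 for exonic L2 (-1.74 on the log2 scale, edgeR adjusted p = 0.0301) and exonic MIR (-1.36, adjusted p = 0.0328). This was tested after the values were seen, and 18.1% of the 116 rows passed.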

How the results depend on the processing

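Values here are log2 differences or numbers of calls. The cause of a change was not tested, except that fits on the libraries of 1 siRNA number or with a block have fewer libraries or degrees of freedom, and the stricter filter tests fewer loci. SMARCA4 and the call of L2-2_Mam kept direction, SMARCA4 kept its call in all 24 alternatives, and no called locus described in the text reversed.

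For the knockdown, scaling on repeats alone gave -0.17 for MIR, -0.13 for L2, -0.24 for intronic MIR, -0.058 for MIR outside genes, -0.18 for intronic L2 and -0.020 for L2 outside genes. VM libraries alone gave -0.093 for MIR, -0.11 for L2, -0.11 for intronic MIR and -0.11 for intronic L2, and 0.20 without a call for L2 outside genes. The tag as a covariate gave -0.082 for MIR, -0.10 for L2, -0.10 for intronic MIR, -0.11 for intronic L2 and 0.21 without a call for L2 outside genes. Libraries of siRNA number 2 alone gave 0.22 for exonic MIR, -0.0037 for intronic MIR, 0.26 for exonic L2 and 0.28 without a call for L2 outside genes, and those of number 4 gave 0.22 there. Sparse repeats as a covariate gave 0.37 for exonic MIR, 0.47 for exonic L2 and 0.081 for L2 outside genes. L2 outside genes also lost its call with RLE factors (0.26), a minimum count of 30 (0.25) and exons set by 50% overlap (0.27). Called subfamilies numbered 0 with number 2 alone, number 4 alone, the full-label block and the covariate of sparse repeats, with edgeR and 1, 1, 0 and 1 at an unadjusted p under 0.05. Called loci of MIR and L2 numbered 30 and 22 with a minimum count of 30, 4 and 4 with number 2, 1 and 0 with number 4, and 2 and 0 with the covariate.

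For senescence, number 4 alone gave calls for MIR (0.59) and L2 (0.72), and MIR was called with VM libraries (0.37) and the tag (0.37). Number 2 alone gave -0.11 for L2, -0.46 for exonic MIR and -0.59 for exonic L2. The covariate of sparse repeats gave -0.014 for exonic MIR and -0.035 for exonic L2, and scaling on repeats alone gave -0.0026 for L2 outside genes. Called subfamilies numbered 2 with DESeq2, 7 with number 4, 3 with VM libraries and 6 with the tag. They numbered 0 with RLE factors, scaling on repeats, no filter, a minimum count of 30, both blocks and the covariate. Called loci of MIR and L2 numbered 753 and 560 without a filter, 123 and 94 with a minimum count of 30 and 234 and 179 with number 2, and MIR 258 with number 4.

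Whether the labels pair libraries could not be told, and the replicate block changed these values. On the full label it gave -0.075 for MIR, -0.079 for L2, -0.12 for intronic MIR, -0.11 for intronic L2 and 0.19 without a call for L2 outside genes with the knockdown, with 1 MIR and 0 L2 loci called, and 174 MIR and 126 L2 loci called with senescence. On the digit it gave 0.11 for exonic MIR, 0.14 for exonic L2 and 0.24 for L2 outside genes, with 47 MIR and 27 L2 loci called.

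Leaving out 1 library gave, for the knockdown, -0.018 to 0.093 for MIR, -0.0020 to 0.14 for L2, -0.15 to 0.11 for exonic MIR, -0.016 to 0.10 for intronic MIR, 0.18 to 0.28 for MIR outside genes, -0.20 to 0.10 for exonic L2 and 0.22 to 0.32 for L2 outside genes, with 35 to 74 MIR and 19 to 50 L2 loci called. For senescence it gave 0.21 to 0.36 for MIR, 0.28 to 0.46 for intronic MIR, -0.0014 to 0.34 for exonic L2 and 0.20 to 0.45 for intronic L2, and 0 to 3 subfamilies called. Of 71 loci called with senescence for which alternatives were run, 19 lost it with the full-label block and 21 with number 4.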
